A study of Homo sapiens with 15 samples.

Results

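HSL119, a compound known here by its code name, was given to JIMT-1 cells, and RNA from these cells was set against RNA from control cells (CTL) of the same line. All cells were grown in medium with fetal bovine serum, per the labels. JIMT-1 is an established human breast cancer line that carries extra copies of the HER2 gene ERBB2. The comparison took the libraries whose titles name HSL119 (n = 3) and those whose titles name CTL (n = 4), which are 7 of the 15 libraries of the series, and used all 758 genes of the panel. The other 8 libraries come from JIMT-1 lines KD1 (n = 4) and KD2 (n = 4), in which shRNA targets the kinase HUNK, grown with puromycin at 1 ug/ul. HSL119 was given at 1 ug/ul, as the labels write it, and they state neither the length of treatment nor whether CTL cells received a vehicle, puromycin or a control shRNA. A difference between HSL119 and CTL therefore cannot be told apart from an effect of the vehicle or of any selection that one group had and the other had not. The labels do not say whether the replicates of a group were separate cultures, so p-values measure the spread between these libraries, which may be technical.

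HER2 is a receptor tyrosine kinase that pairs with the other ERBB receptors and signals through the RAS-RAF-MEK-ERK cascade and through PI3 kinase, AKT and mTOR. ERK switches on immediate early genes, among them the AP-1 subunits FOS, FOSL1 and JUN, and also the genes of its own inhibitors, the Sprouty proteins and the dual-specificity phosphatases. AP-1 factors in turn support genes of migration, matrix and inflammation, and AP-1 and the Snail repressors are known from breast cancer cells with mesenchymal traits, of which JIMT-1 has some. HUNK is a serine/threonine kinase studied in HER2-positive breast cancer, and the series sets the response to the compound beside that to its knockdown. HUNK itself is not on the panel.

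Total counts recovered from the deposited values ran from 1241234 to 1457370 per CTL library and from 1361855 to 1466439 per HSL119 library, and genes near background are limited by these totals. A gene was tested if its linear value was over 20 in at least 3 of the 7 libraries. This kept 576 genes and left out 182. Values per library are given as scaled counts, the deposited log2 values turned back to a linear scale after each library's panel-wide shift was removed. That shift placed the typical HSL119 value 0.347 higher than the CTL value on the deposited log2 scale, and every difference below is read against it. The deposited log2 values differed from the log2 of the deposited linear values by a mean of -0.155 in CTL and 0.172 in HSL119. The log2 and linear values therefore carry different shifts, and the shift cannot be read as a property of the cells. The largest source of variance among the 7 libraries separated HSL119 from CTL and carried 93.3% of it. CTL libraries 1 and 2 were nearly identical, as were 3 and 4, since a chi-square test of their counts gave 1.44 and 1.14 per degree of freedom, against 4.67 to 4.8 between the pairs. HSL119 replicate 1 stood apart from replicates 2 and 3, with values of 13.61 and 17.12 against 3.93 between the latter. In HSL119 replicate 2, 619 panel genes exceeded the floor of 20, against 531 and 546 in the other HSL119 libraries and 523 to 559 in CTL. The summed scaled count of 8 tumour cell markers on the panel lay between 117884.6 and 124440.2 in CTL and between 69962.0 and 74901.9 in HSL119, and ERBB2, GRB7, CDH1, KRT7 and CD44 were all well over the floor in every library. The markers behind this sum did not move together. CD44 and GRB7, among the most abundant genes of the panel in CTL, were lower in HSL119, as was KRT7. ERBB2, EGFR, MUC1, CDH1 and KRT5 were higher. Marker sums of T and NK cells were 201.5 to 208.4 in CTL and 227.6 to 292.0 in HSL119, with no gene over 100. B cell markers summed to at most 43.3 in CTL and 56.6 in HSL119. Myeloid, endothelial, fibroblast and adipocyte lists each had 1 gene over 100, namely CD68, EDNRB, PDGFRA and PPARG. The endothelial sum was 337.7 to 401.8 in CTL and 1206.4 to 1318.3 in HSL119, and EDNRB made up most of it, while PECAM1, a defining endothelial gene, had a mean of 16.7 in CTL and 41.3 in HSL119. The myeloid sum was 468.8 to 514.1 in CTL and 190.1 to 210.1 in HSL119, and the fibroblast sum 408.7 to 464.8 and 371.5 to 401.5. The part of these markers in the results was not tested.

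A large share of the panel differed between HSL119 and CTL, in both directions. In limma 235 genes (40.8% of those tested) were higher and 237 (41.1%) were lower at an adjusted p under 0.05. On the deposited values without removal of the shift the split was 304 and 164, and on values centred on library medians it was 186 and 288. The words rose and fell are kept for genes that passed one way under 5 scalings, both with 7 libraries and with the CTL pairs averaged. By that rule 174 genes rose (30.2% of those tested) and 149 fell (25.9%), together 323 (56.1%). More genes fell than rose by large factors: in fitted values, which are less certain where a group lies under the floor, 45 genes fell and 25 rose by more than 4-fold, and 23 fell and 6 rose by more than 8-fold. The median difference was 1.09 on the log2 scale among genes that rose and -1.43 among genes that fell, beside 0.032 over all tested genes. The HSL119 libraries lay wholly above the CTL libraries in 233 genes (40.5%) and wholly below them in 231 (40.1%). In bulk RNA, less RNA per cell and fewer cells in a given state cannot be told apart.

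**Figure D1:**
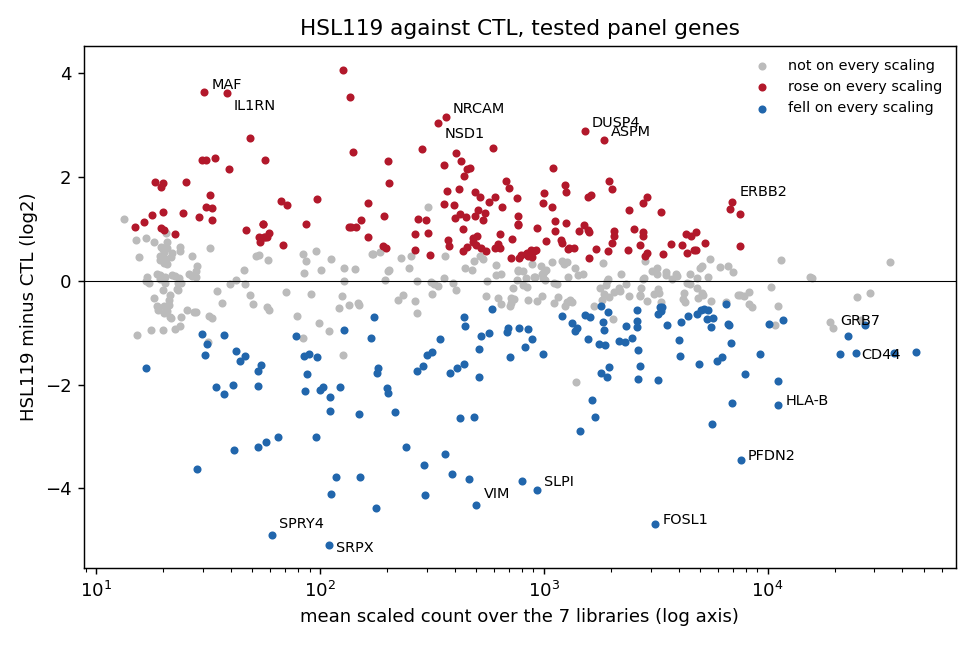
The 576 tested genes are plotted by their mean scaled count over the 7 libraries (x axis, log scale) and by the difference of HSL119 from CTL (y axis, log2). Red points rose and blue points fell on every scaling, grey points did not pass on every scaling, and the longest distances from 0 are among the falls.

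The HER2 receptor gene rose, while a neighbour in its amplicon fell. ERBB2 measured 4518, 4436, 4255 and 4503 scaled counts in CTL and 14153, 12022 and 12112 in HSL119. Each HSL119 library was above each CTL library, and the rise was 2.88-fold (1.52 on the log2 scale, SE 0.058, adjusted p 3.32e-10). GRB7, an adaptor protein whose gene lies beside ERBB2 and is amplified with it, measured 32835, 31369.7, 30614 and 30736 scaled counts in CTL and 15215, 14696 and 14998 in HSL119. It fell 2.1-fold, again with no overlap. MED1, a Mediator subunit encoded in the same amplicon, went the way of ERBB2, from a mean of 5166 to 12580. EGFR, the receptor of EGF, rose 1.66-fold. The ligand amphiregulin, AREG, measured 601, 566, 749 and 686 in CTL and 162, 191 and 214 in HSL119 and fell 3.44-fold. EREG, another EGFR ligand, differed by -0.97 and EGF by 0.47, and neither passed on every scaling. ERBB4 was not tested, since its values stayed near the floor. Of the 7 tested genes of this list, 3 rose and 2 fell (42.9% and 28.6%), beside 30.2% and 25.9% of all tested genes.

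Genes that ERK controls in its own feedback moved apart. SPRY4, a Sprouty inhibitor of receptor signalling, measured 274, 244, 269.5 and 261 scaled counts in CTL and 6.5, 9.3 and 11 in HSL119. All HSL119 values lay under the floor, so the fall was at least 13.1-fold, the CTL mean over the floor of 20, with an adjusted p of 2.57e-10. DUSP6, the cytoplasmic phosphatase of ERK, measured 336, 306, 445 and 449 in CTL and 20.4, 30.1 and 17.3 in HSL119, and fell 17.2-fold. SPRY1 fell from a mean of 40.3 to 19.8, just under the floor. The nuclear phosphatase DUSP4, also a product of ERK-responsive transcription, measured 633, 540.2, 739.7 and 691 scaled counts in CTL and 4689.9, 4684 and 4955 in HSL119. Its rise of 7.38-fold (SE 0.089 on the log2 scale) left no overlap between the groups. SPRY2 rose 2.35-fold, so that within the Sprouty family and within the phosphatases one member rose while another fell. RASGRF1, an exchange factor that loads RAS with GTP, rose 1.79-fold, and RASGRP1 differed by -0.58 without passing on every scaling. In all, 3 of the 7 tested genes rose and 3 fell (42.9% and 42.9%), beside 30.2% and 25.9% of all tested genes.

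Most of the listed immediate early and ERK-responsive genes fell: 9 of 11 tested genes fell (81.8%, beside 25.9% of all tested genes) and 0 rose. The median log2 difference of the list was -1.92 against 0.032 over all tested genes. FOSL1, the FRA1 subunit of AP-1 and with JUN the most abundant of the list in CTL, measured 12536, 12150.3, 12852 and 13055 scaled counts in CTL and 436, 478 and 574 in HSL119. The fall was 25.6-fold with an adjusted p of 8.49e-13. FOS measured 480.4, 459, 939 and 902 in CTL and 34.3, 23 and 40.1 in HSL119, which put CTL replicates 3 and 4 near 921 and replicates 1 and 2 near 469.5. Set against each CTL pair alone, the difference was -3.89 and -4.86, so FOS was lower in HSL119 than in either pair. JUN measured 10478, 10334, 15649.9 and 15819.7 in CTL and 1484, 2112 and 2155 in HSL119, with the same pair of CTL libraries higher and every HSL119 library below every CTL library. ETV4, an ETS factor induced by ERK, fell 7.43-fold. MYC, which drives growth and proliferation, measured 5494, 5066, 6226 and 6243 in CTL and 1459.7, 1508 and 1598 in HSL119 and fell 3.77-fold. The nuclear receptor NR4A1 fell 4.13-fold, and its HSL119 value in replicate 1 was the lowest of the 3. ID2 and ID4, inhibitors of basic helix-loop-helix factors, fell 3.11-fold and 2.69-fold, and the antiproliferative gene BTG2 fell 2.02-fold.

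NR4A3 did not follow its relative. It measured 118, 111, 332 and 359 scaled counts in CTL and 326, 615 and 754 in HSL119, so that the groups overlapped and the difference of 1.42 did not pass on every scaling. Against CTL replicates 1 and 2 the difference was 2.22 and against 3 and 4 it was 0.62. Among the 418 genes with a mean over 100, 6 differed more than 1.5-fold between the CTL pairs, and all 6 were higher in replicates 3 and 4: FOS, JUN, NR4A3, IL6, EDN1 and HES1. Between HSL119 replicate 1 and the mean of 2 and 3, 11 genes differed by that much. CD24, a surface glycoprotein read together with CD44 to sort breast cancer cells, showed the widest such gap, with values of 2344, 2485, 2489.6 and 2601 in CTL and 279, 1694 and 554 in HSL119.

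**Figure D2:**
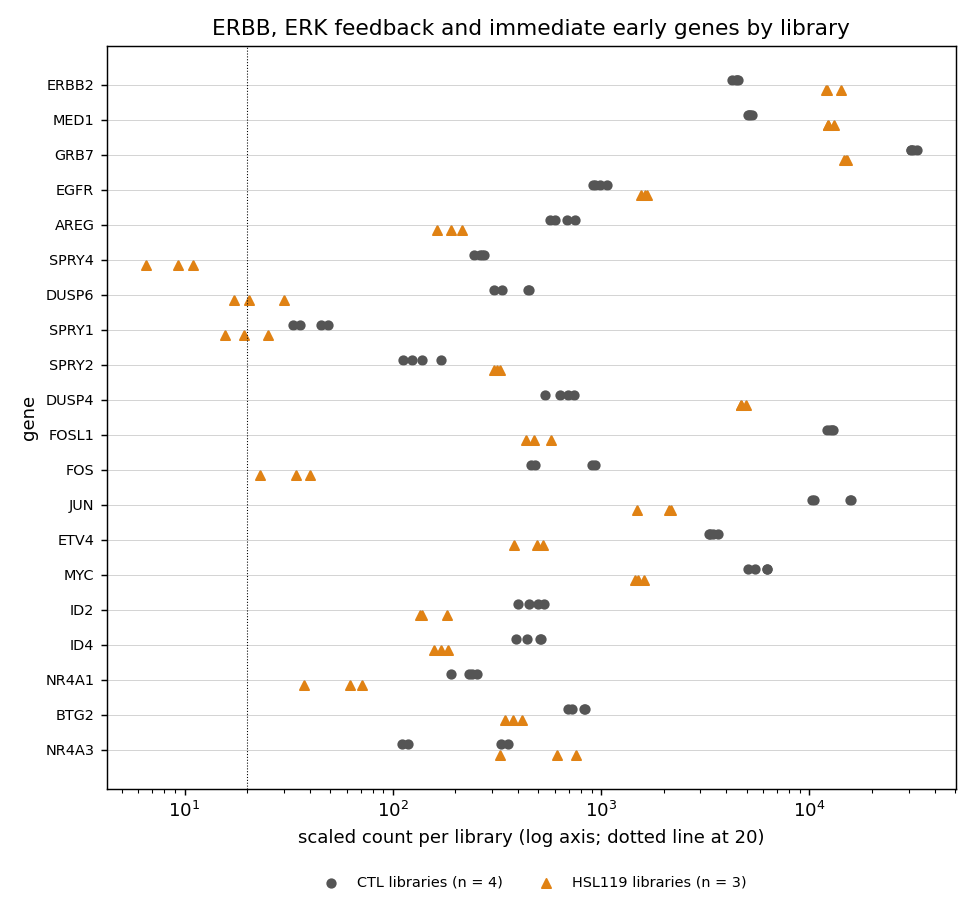
Each row is a gene and each point a library, with CTL libraries as grey circles (n = 4) and HSL119 libraries as orange triangles (n = 3), on a log axis of scaled counts. FOS, JUN, DUSP6 and NR4A3 show the CTL libraries in pairs, and NR4A3 is the gene whose groups overlap.

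Among the kinase genes, MAPK3, which encodes ERK1, differed by -0.26 (95% interval -0.40 to -0.12) and did not pass on every scaling. The 3 genes of this list that rose were MAPK10, MAP2K4 and MAP3K12. MAPK10, the JNK3 gene, went from a mean of 11.4, under the floor, to 41.8. MAP2K4, which activates JNK and p38, rose 2.37-fold, and MAP3K12 rose 1.78-fold. The stress-induced genes GADD45A and GADD45B fell 2.73-fold and 3.12-fold, while GADD45G differed by 0.062. Of 11 tested genes, 3 rose and 2 fell (27.3% and 18.2%), beside 30.2% and 25.9% of all tested genes.

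In the PI3 kinase list 9 of 13 tested genes rose and 1 fell, which is 9 rises where the tested panel as a whole rose in 30.2% of its genes, and the list median was 0.569. The regulatory subunits PIK3R3 and PIK3R1 were the most changed of those named. PIK3R1, which encodes p85-alpha, measured 209, 204, 250.4 and 221 scaled counts in CTL and 822, 704 and 679.9 in HSL119. No HSL119 library overlapped CTL, and the rise was 3.33-fold. PIK3R3 rose 5.54-fold, with HSL119 replicate 1 the highest, and PIK3R2 rose 1.87-fold. The catalytic subunits PIK3CA and PIK3CD rose 1.49-fold and 1.42-fold, MTOR 1.48-fold and its target kinase gene RPS6KB1 1.42-fold. IGF1R, the receptor of insulin-like growth factor, went from a mean of 340.3 to 878. EIF4EBP1, the translation repressor that mTOR phosphorylates, was the fall: it measured 57116, 54928, 54547 and 55293 scaled counts in CTL and 20956, 20999.5 and 21656 in HSL119, the second most abundant gene of the panel in CTL, and fell 2.62-fold.

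Genes of entry into S phase fell in 10 of 22 tested cases and rose in 1 (45.5% and 4.5%), beside 25.9% and 30.2% of all tested genes. RRM2, the ribonucleotide reductase subunit that supplies deoxynucleotides, measured 14037, 14053, 13793 and 13929.6 scaled counts in CTL and 2949.6, 2559 and 2682 in HSL119. The fall was 5.12-fold, with every HSL119 library under every CTL library. Cyclin E1, CCNE1, measured 4749, 4512, 4583 and 4643 in CTL and 1339.7, 1187 and 1218 in HSL119 and fell 3.71-fold, and CCNE2 fell 3.34-fold. CCND1, the cyclin D1 gene that growth factor signals induce, went from a mean of 3055 to 891. The ubiquitin-conjugating enzyme gene UBE2T, the origin recognition gene ORC6 and the sliding clamp gene PCNA fell 2.48-fold, 2.25-fold and 1.94-fold. E2F1, a transcription factor of this phase, was the rise, at 1.48-fold. Other replication genes sat near no difference: MCM2 at -0.15, MCM3 at 0.12 and CDC6 at -0.31.

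Of 30 tested mitotic genes 8 rose and 11 fell (26.7% and 36.7%), beside 30.2% and 25.9% of all tested genes, with a median of -0.208. CDK1, the mitotic kinase, measured 20384, 19279, 19546 and 19689.9 scaled counts in CTL and 5068, 5084 and 5302 in HSL119. It fell 3.83-fold, with no overlap. UBE2C, which hands ubiquitin to the anaphase-promoting complex, fell 2.64-fold from a mean of 37750, and the kinase gene AURKB and the kinetochore gene NUF2 fell 2.52-fold and 2.19-fold. ASPM, a spindle pole protein, measured 847, 796, 817 and 861 scaled counts in CTL and 5171, 5223 and 5946 in HSL119. It rose 6.55-fold, and CENPF, a large kinetochore protein, rose 3.07-fold. KIF14, MELK, FOXM1 and MKI67, the Ki-67 gene, rose between 1.61-fold and 1.94-fold. CCNB1, the cyclin partner of CDK1, was among the 10 genes whose interval was narrowest around 0, at 0.073 (95% interval -0.016 to 0.16).

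Inhibitors of the cyclin-dependent kinases also parted within their families. CDKN1A, which encodes p21, measured 934, 941, 1066 and 1056 scaled counts in CTL and 3368, 2962 and 3017 in HSL119, a rise of 3.12-fold without overlap. CDKN1B, the p27 gene, rose 1.91-fold. CDKN1C, the p57 gene of the same family, measured 917, 926, 907 and 962 in CTL and 158, 148 and 142 in HSL119 and fell 6.22-fold. Among the INK4 genes CDKN2C rose 2.35-fold, CDKN2D fell 3.21-fold and CDKN2A differed by 0.061 (95% interval -0.033 to 0.15). RB1, the retinoblastoma gene, rose 1.72-fold and the ubiquitin ligase gene MDM2 1.92-fold. The apoptosis genes BAX and BBC3 differed by 0.24 and -0.42, and neither passed on every scaling. The list of 18 tested genes held 5 rises and 4 falls (27.8% and 22.2%), shares near the 30.2% and 25.9% of all tested genes. The falls include THBS1 and SERPINB5, which are not inhibitors of these kinases.

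DNA repair genes rose in 15 of 25 tested cases and fell in 5 (60% and 20%), with a median of 0.527. Of all tested genes 30.2% rose and 25.9% fell. FANCF, of the Fanconi core complex, measured 196, 211, 192 and 183 scaled counts in CTL and 1143, 1051 and 1019.9 in HSL119. The rise was 5.48-fold. BRCA2, which acts in repair by homologous recombination, measured 189.6, 197, 161 and 199.5 in CTL and 783, 887 and 939 in HSL119, and rose 4.66-fold without overlap. BRCA1 rose 2.77-fold, PALB2, which joins BRCA1 and BRCA2, 2.26-fold and XRCC2, of the same repair route, 4.46-fold. PMS2, of mismatch repair, rose 3.78-fold and the helicase gene WRN 1.77-fold. The falls were RAD54L (2.42-fold), the nuclease gene EXO1 (2.09-fold), PARP2, PARP1 and CHEK2.

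Among 25 tested mesenchymal and matrix genes 10 fell and 2 rose (40% and 8%), beside 25.9% and 30.2% of all tested genes. VIM, the intermediate filament of mesenchymal cells, measured 1845, 1812, 1824 and 1740 scaled counts in CTL and 88.1, 95.4 and 87.4 in HSL119. The groups were far apart, with a fall of 20-fold and an adjusted p of 3.54e-13. The Snail repressors SNAI2 and SNAI1, which silence E-cadherin, fell 10.1-fold and 6.18-fold. ITGB6, an integrin subunit that activates latent TGF-beta, measured 461, 442, 479.7 and 482 in CTL and 43.2, 35.1 and 26 in HSL119 and fell 13.7-fold. The membrane protease gene MMP14 and the caveolin gene CAV1 fell 3.44-fold and 2.93-fold, and CD44, the hyaluronan receptor and most abundant gene of the panel in CTL, went from a mean of 68920 to 26760. The rises were N-cadherin, CDH2 (1.58-fold), and the secreted protease MMP9 (2.24-fold). TWIST1 differed by -0.29 and ZEB1 by 0.082, and neither passed on every scaling.

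Epithelial junction genes rose in 5 of 10 tested cases and fell in 2 (50% and 20%), beside 30.2% and 25.9% of all tested genes. OCLN, the tight junction protein occludin, measured 216, 223, 230.4 and 198 scaled counts in CTL and 1044, 1083 and 1079 in HSL119, a rise of 4.94-fold. Desmocollin 2, DSC2, and the apical mucin MUC1 rose 3.76-fold and 3.39-fold, and E-cadherin, CDH1, rose 1.59-fold. The claudins parted: CLDN1 measured 302, 310.3, 349 and 320.5 in CTL and 60.4, 53.1 and 49.6 in HSL119 and fell 5.91-fold, CLDN4 rose 1.65-fold, and CLDN3 and CLDN7 differed by 0.21 and -0.40 without passing. The keratin gene KRT7 fell 1.86-fold.

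**Figure D3:**
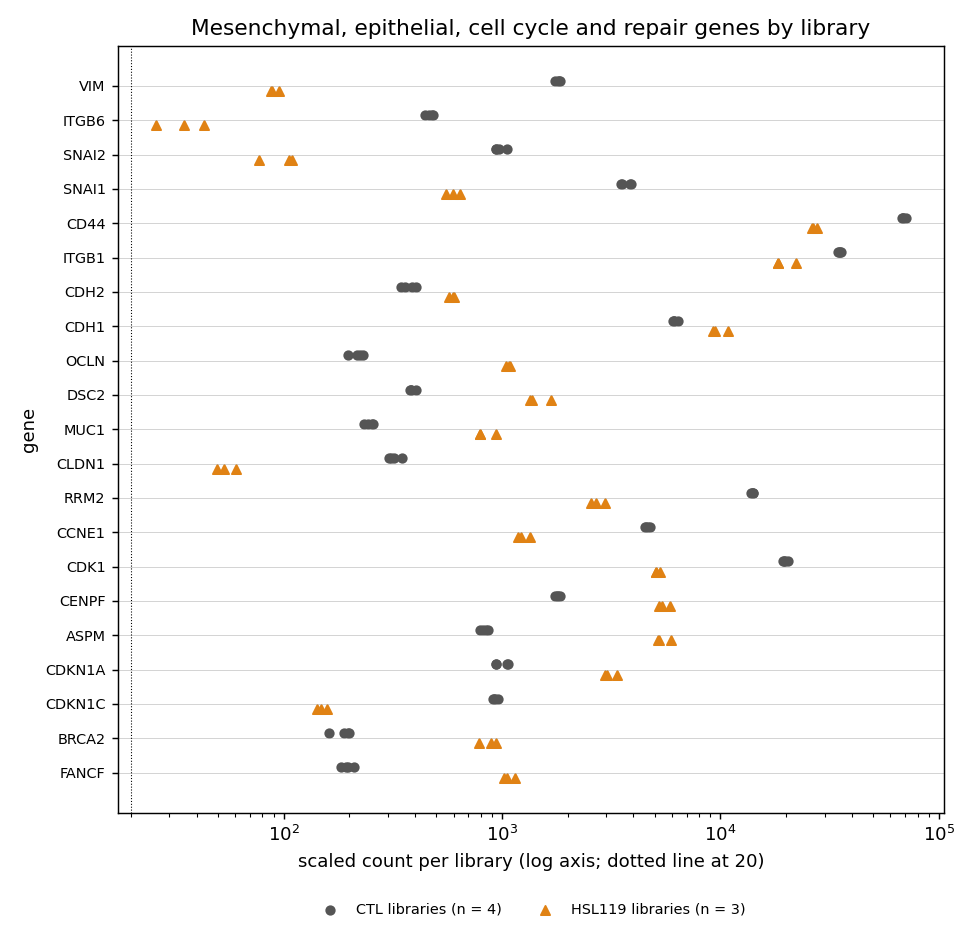
Scaled counts per library on a log axis for 21 genes of the mesenchymal, epithelial, cell cycle and repair lists, with CTL libraries as grey circles (n = 4) and HSL119 libraries as orange triangles (n = 3). VIM and ITGB6 lie lower and OCLN and BRCA2 higher in HSL119 with no overlap of the groups.

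Markers of the breast lineages did not move as blocks. Of 20 tested luminal and hormone receptor genes 9 rose and 4 fell (45% and 20%). Of 15 tested basal genes 6 rose and 4 fell (40% and 26.7%), beside 30.2% and 25.9% of all tested genes. The annexin gene ANXA9 measured 283, 260.4, 292 and 285 scaled counts in CTL and 1935, 1491 and 1519 in HSL119 and rose 5.85-fold. ESR1, the oestrogen receptor gene, rose 2.26-fold to a mean of 243 scaled counts, and its pioneer factor FOXA1 fell 1.62-fold while GATA3 rose 1.5-fold. Of the basal keratins KRT5 rose 1.55-fold and KRT14 from a mean of 11.4, under the floor, to 39.8. The actin-related gene ACTR3B rose 4.49-fold, and MIA, a small secreted protein, rose from a mean of 17, under the floor, to 87.

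The ligands TGFB1 and TGFB2 fell while 3 receptors of the TGF-beta family rose. TGFB1 measured 1195, 1169.9, 1140.2 and 1220 scaled counts in CTL and 108, 86.1 and 77.1 in HSL119. It fell 13.2-fold (adjusted p 2.38e-11). TGFB2 measured 1092, 988, 966 and 962 in CTL and 44.1, 61 and 70.8 in HSL119 and fell 17.4-fold, with no overlap. The activin subunit INHBB and the signal transducer SMAD3 fell 4.27-fold and 3.61-fold. The receptors BMPR1A, BMPR2 and TGFBR2 rose 3.28-fold, 2.11-fold and 2.03-fold, SMAD1, which acts below the BMP receptors, rose 1.54-fold and the latent TGF-beta binding protein LTBP1 1.9-fold. SMAD4, the partner of both branches, differed by 0.37 and did not pass on every scaling. Of 19 tested genes 7 rose and 4 fell (36.8% and 21.1%), beside 30.2% and 25.9% of all tested genes.

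Of 17 tested Wnt genes 6 fell and 1 rose (35.3% and 5.9%), beside 25.9% and 30.2% of all tested genes. LEF1, a nuclear partner of beta-catenin, measured 123, 139, 158 and 127 scaled counts in CTL and 11.4, 33 and 8.7 in HSL119. HSL119 replicates 1 and 3 lay under the floor and replicate 2 over it. The CTL mean was 6.81 times the floor, which is no lower bound of the fall, since replicate 2 exceeded the floor. TCF7L1, of the same family, fell from a mean of 71.3 and AXIN2, a feedback target of the pathway, from 45, both to means under the floor. The ligand WNT7B fell 3.2-fold and WNT5B rose 1.55-fold. AXIN1 had the interval closest to 0 of all tested genes on the scale used here, at 0.020 (95% interval -0.085 to 0.13). In the Notch list 5 of 17 tested genes rose and 1 fell (29.4% and 5.9%), beside 30.2% and 25.9% of all tested genes. The coactivator MAML2 went from a mean of 60.8 to 180.5, the ligand DLL4 fell from 71.4 to 26.1, and the receptors NOTCH1, NOTCH2 and NOTCH3 differed by -0.044, 0.10 and -0.13 and did not pass on every scaling. The target HES1 differed by -0.73, and was one of the 6 genes that parted the CTL pairs.

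Interferon-stimulated genes fell in 5 of 6 tested cases (83.3%, beside 25.9% of all tested genes), with a median of -1.58. OAS3, a sensor of double-stranded RNA, measured 659.7, 636, 594 and 629 scaled counts in CTL and 61.2, 73.2 and 70 in HSL119. The fall was 9.26-fold. RARRES3, a retinoid-responsive gene, fell 14.1-fold, the ubiquitin-like ISG15 1.96-fold, and the chemokine CXCL10 from a mean of 27.6 to 8.56, under the floor. Class I HLA genes, which present peptides to T cells, were among the falls: HLA-B measured 22607, 22709, 22861 and 22552 scaled counts in CTL and 4705, 4342 and 4019.7 in HSL119, a fall of 5.22-fold, and HLA-E and HLA-C fell 2.29-fold and 1.81-fold. HLA genes are near-identical in parts of their sequence, and how the panel's probes separate them is not given in the sources used here. The class II gene HLA-DMA rose 1.73-fold. Of 14 tested genes of antigen presentation 6 fell and 1 rose (42.9% and 7.1%), beside 25.9% and 30.2% of all tested genes. The checkpoint ligand PDCD1LG2, PD-L2, fell 3.48-fold and CD276 fell 1.64-fold, while CD274, PD-L1, differed by -0.18 (95% interval -0.34 to -0.033).

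Of 20 tested cytokine, receptor and NF-kappa-B genes 6 rose and 6 fell (30% and 30%), shares near the 30.2% and 25.9% of all tested genes. IL1RN, the natural antagonist of the interleukin 1 receptor, measured 14.9, 15.3, 8.5 and 15.5 scaled counts in CTL and 148, 169 and 164 in HSL119. CTL values lay under the floor and all HSL119 values well over it. IL1B, the cytokine it opposes, differed by -0.72 and did not pass on every scaling. NFKBIZ, an inducible regulator of NF-kappa-B, fell 6.14-fold, and IL6 measured 292, 254, 499 and 506 in CTL and 63.6, 112 and 96 in HSL119 and fell 4.2-fold. IL6 was another of the genes that were higher in CTL replicates 3 and 4, and the difference was -1.63 against replicates 1 and 2 and -2.51 against 3 and 4. TNF fell 2.77-fold and the chemokine CCL5 3.32-fold. LIF rose 3.06-fold as its receptor LIFR fell 2.17-fold. The cytokine receptor subunits IL20RB and IL4R rose 5.02-fold and 2.31-fold. Of the SOCS feedback genes SOCS2 rose 3.28-fold, and SOCS1 and SOCS3 fell 2.78-fold and 1.84-fold.

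Chromatin regulators rose in 8 of 13 tested cases and fell in 0 (61.5% and 0%), beside 30.2% and 25.9% of all tested genes. NSD1, a methyltransferase of histone H3 lysine 36, measured 139, 153, 135 and 122 scaled counts in CTL and 1126, 1107 and 1124 in HSL119. The rise was 8.18-fold with no overlap. The acetyltransferases KAT2B, EP300 and CREBBP rose 5.79-fold, 3.56-fold and 2.13-fold, and HDAC1, a deacetylase, rose 1.63-fold. HDAC2 and HDAC5 were among the flattest genes of the panel, at 0.0007 (95% interval -0.14 to 0.14) and 0.034 (-0.074 to 0.14). Histone genes rose too: HIST1H1C, a linker histone, 2.6-fold, HIST1H3H 2.48-fold and HIST3H2BB 1.51-fold, the 3 genes of that list, and HIST1H2BH, which is in no list, 1.91-fold. Histone genes have near-identical copies, and the copies behind these counts cannot be told apart here.

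Some metabolic and survival genes passed. Of 14 tested genes of hypoxia and glucose use, 3 rose and 2 fell (21.4% and 14.3%), beside 30.2% and 25.9% of all tested genes. The glucose transporter SLC2A1 and the angiogenic factor VEGFA rose 1.87-fold and 1.63-fold, and the vasodilator peptide gene ADM fell 2.34-fold. The glycolytic genes ENO1 and PGK1 differed by -0.23 and -0.31, and the sign turned on the deposited and on the quantile-normalized values. In the BCL2 family, BCL2L1, which protects from apoptosis, fell 1.61-fold, BAD, which promotes it, rose 1.51-fold, and the cochaperone BAG1 rose 2.01-fold. BAX differed by 0.24.

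Among growth factor receptors FGFR3 and FGFR2 rose 2.21-fold and 1.82-fold and FGFR4 fell 1.9-fold. MET, the hepatocyte growth factor receptor, fell 1.7-fold, NGFR, the p75 neurotrophin receptor, 2.91-fold, and the ligand FGF1 2.05-fold. The ephrin EFNA5 rose 2.91-fold. Of 16 tested genes 3 rose and 4 fell (18.8% and 25%), beside 30.2% and 25.9% of all tested genes. Of 13 tested genes better known from neurons 3 rose and 3 fell (23.1% and 23.1%), beside 30.2% and 25.9% of all tested genes, with a median of -0.034. NRCAM, a neuronal adhesion molecule, measured 128, 148, 171 and 129.7 scaled counts in CTL and 1496, 1162 and 1189 in HSL119, and rose 8.91-fold. CACNA1D, an L-type calcium channel subunit, measured 21.8, 25.4, 32.8 and 11.6 in CTL and 153, 129.8 and 154 in HSL119 and rose 6.76-fold, and the presynaptic NRXN3 rose 4.42-fold. The calcium channel subunit CACNG4 fell 3.08-fold, and TTYH1 fell from a mean of 74.2 to one under the floor.

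Of 14 tested secreted and coagulation genes 8 fell and 2 rose (57.1% and 14.3%), beside 25.9% and 30.2% of all tested genes. SRPX, SLPI, F3 and S100A7 were among the 15 largest fitted falls. SRPX, a sushi-repeat protein, measured 467, 489, 505 and 523 scaled counts in CTL and 12.2, 27.3 and 9.4 in HSL119. HSL119 replicates 1 and 3 lay under the floor and replicate 2 over it. The CTL mean was 24.8 times the floor, which again is no lower bound of the fall. SLPI, a secreted inhibitor of leukocyte proteases, measured 3032, 2964, 3229 and 3174 scaled counts in CTL and 204, 192 and 174 in HSL119, a fall of 16.3-fold. F3, the tissue factor that starts coagulation, measured 2525, 2536, 2564 and 2430.4 in CTL and 195, 167 and 162 in HSL119 and fell 14.4-fold. S100A7, psoriasin, fell from a mean of 83.1 to 6.76, under the floor. THBS1, the matrix glycoprotein thrombospondin 1, fell 11.7-fold. SPP1, osteopontin, rose from a mean of 12.3, under the floor, to 29.6.

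**Figure D4:**
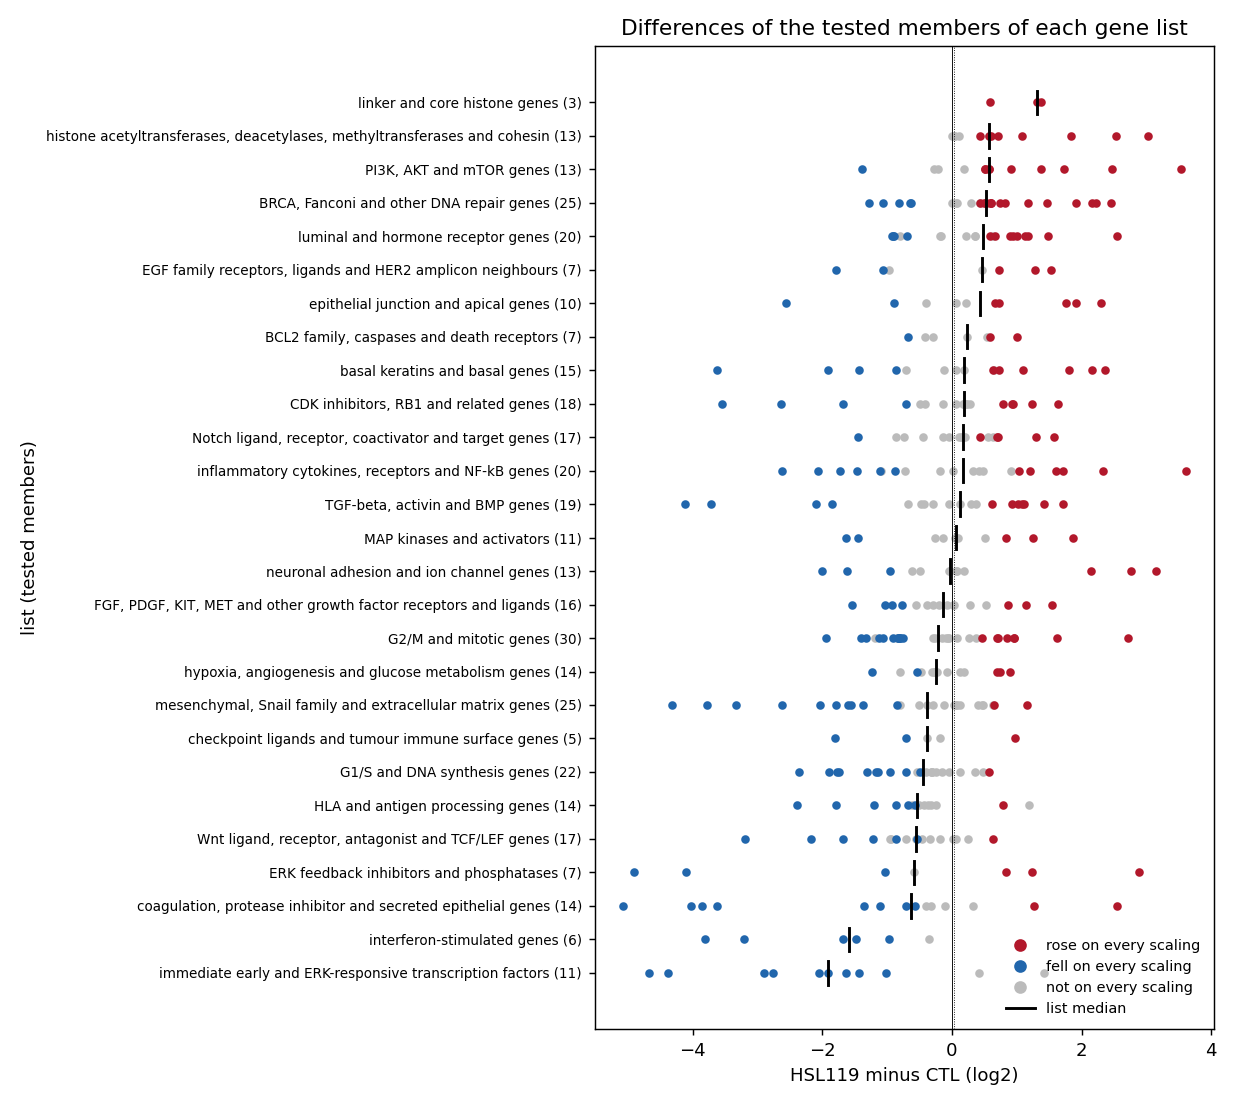
Each row is a gene list with its number of tested members in brackets, each point a member's difference of HSL119 from CTL (x axis, log2), red where it rose and blue where it fell on every scaling, with the list median as a black bar. The immediate early and ERK-responsive list has its median at -1.92 and the histone list at 1.31. The dotted line marks the median of all tested genes at 0.032.

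A further 205 tested genes belonged to no list, and of those named here the ones outside the naming rule were chosen after their values were seen. PFDN2, a subunit of the prefoldin chaperone and one of the abundant genes of the panel, measured 21688, 20459, 20969 and 21156 scaled counts in CTL and 1717, 2013 and 2089 in HSL119. Its fall of 10.9-fold came with no overlap. The heparan sulfate proteoglycan GPC4 fell 13.7-fold, the prostaglandin receptor PTGER3 8.07-fold, the metallothionein MT1G 4.94-fold and the creatine kinase CKB 5.73-fold. The nuclear architecture protein HMGA1 went from 31800 to 12030. ARNT2, a bHLH-PAS transcription factor, rose 4.94-fold, the endothelin receptor EDNRB 4.5-fold, the adenylate cyclase ADCY9 4.02-fold and the stress-induced NUPR1 3.4-fold. The homeobox genes HOXB3 and HOXA9 rose 2.67-fold and 2.65-fold, and HOXA5 from 19.8, just under the floor, to 61.9. Of the paired EYA coactivators EYA1 rose, from 10.4 to 39.1, and EYA2 fell, from 161 to 37.1.

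Some genes crossed the floor of 20. In 26 of the 576 tested genes the CTL mean lay under it and every HSL119 library over it, and in 19 the reverse held. MAF, a leucine zipper transcription factor, measured 9.2, 6.1, 18 and 11.6 scaled counts in CTL and 138, 124 and 124 in HSL119. The Hedgehog co-receptor GAS1 went from 15.6 to 77.8 and the NADPH oxidase subunit CYBB from 15 to 74.5. In the other direction the haematopoietic GTPase RAC2 measured 106, 106, 116 and 109 scaled counts in CTL and 9.0, 15.1 and 11 in HSL119, and the zinc finger factor WT1 went from 145 to 16.8. The number of genes over the floor differed by a mean of 24.08 between HSL119 and CTL, with an exact two-sided permutation p of 0.514, and 3 against 4 libraries cannot give less than 0.057. Without HSL119 replicate 2 that difference was -2.75.

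At the other end, the 10 most abundant genes of CTL took 27.2% of the panel's scaled counts there and 20.1% in HSL119. Of these, 6 fell and 0 rose, where 25.9% and 30.2% of all tested genes did. The falls were CD44, EIF4EBP1, UBE2C, ITGB1, HMGA1 and GRB7. SKP1, CDK4, ENO1 and PGK1 did not pass on every scaling. Of all tested genes, 116 had a 95% interval within 0.5 of 0 on the log2 scale, and 39 within 0.25. AXIN1, PPP2CB, HELLS, HDAC2, HDAC5, CDKN2A, TYK2, FLNC, CCNB1 and IFT140 had the intervals narrowest around 0. They are flat relative to the shift that was removed. On the deposited log2 values, which carry that shift, their differences ran from 0.27 to 0.42. Another 149 passed limma's threshold on the scale used here but not on every scaling.

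The span of a gene in the genome, which the tests did not use, was longer in the median among genes that rose, and is given as a description with no test. With lengths from RefSeq's GRCh38.p14 annotation, which all 576 tested genes had, the median span was 42.0 kb for genes that rose, 16.7 kb for genes that fell and 27.8 kb for the others. In the quartile of genes with the shortest spans, 0.46 to 9.72 kb, 23.6% rose and 38.2% fell, with a median difference of -0.43. In the quartile with the longest, 79.12 to 1697.92 kb, 44.4% rose and 18.1% fell, with a median of 0.452. Across genes Spearman's rho between span and difference was 0.225 (n = 576), and 0.28 among the 418 genes with a mean over 100. Genes share these 7 libraries and are no independent replicates, and span was nearly unrelated to level (rho -0.034). Long genes that rose include NRCAM, NRXN3, CACNA1D and MAML2, and short genes that fell include FOS, FOSL1, JUN and SLPI.

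**Figure D5:**
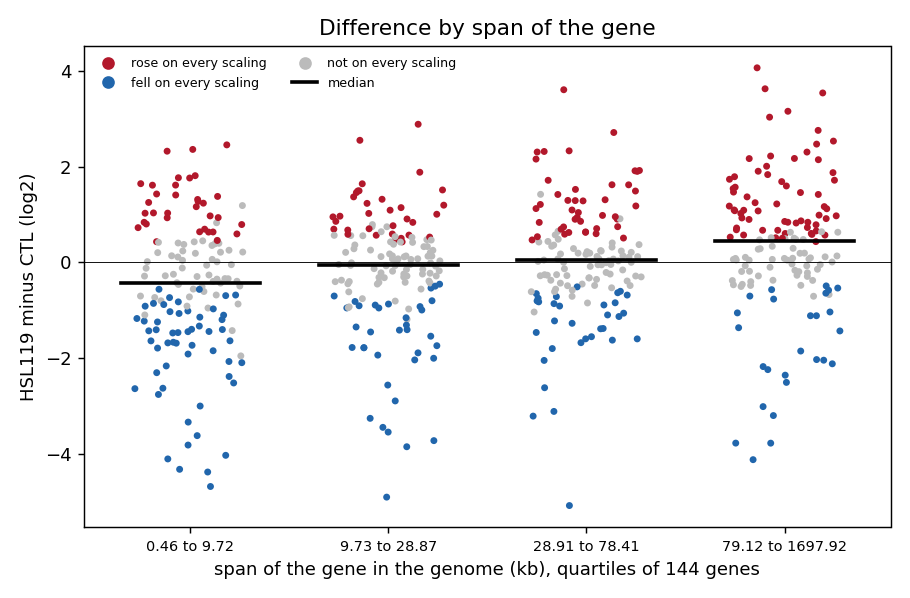
Tested genes in quartiles of 144 by the span of the gene in the genome (x axis, kb) with the difference of HSL119 from CTL (y axis, log2), red where genes rose, blue where they fell and grey otherwise, with the quartile median as a black bar. The median goes from -0.43 in the shortest quartile to 0.452 in the longest.

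Promoter sequence was read for common motifs, among them that of AP-1, whose subunit genes FOS, FOSL1 and JUN fell. Of the 576 tested genes 446 matched a RefSeq promoter of GRCh38.p14, and the 250 bases before the start were searched on both strands for 8 motifs, whose choice followed the results, so no test is given. The AP-1 motif TGANTCA was in 6.6% of all 27305 promoters, in 5.07% of the promoters of genes that rose (7 of 138) in 3.64% of those that fell (4 of 110) and in 5.05% of the others. The SRF CArG box, another element of immediate early genes, was in 1.14%, 1.45%, 2.73% and 0.505%, in the same order. For the NF-kappa-B site, by its usual consensus, the shares were 9.57% of all, 10.9% of genes that rose (15 of 138), 26.4% of genes that fell (29 of 110) and 12.1% of the others. The GC box GGGCGG was in 42.3% of all, 52.9% of rising and 73.6% of falling genes' promoters, and in 62.6% of the other tested genes'. The ETS motif CCGGAAG was in 8.82% of all, 13.8% of rising, 5.45% of falling and 7.58% of the other genes' promoters. The E-box CACGTG was in 6.49%, 9.42%, 4.55% and 10.1%, the TATA box TATAAA in 11.1%, 8.7%, 12.7% and 11.1%, and the core TGACG of the CRE in 21.7%, 19.6%, 28.2% and 25.8%, in the same order. Overlaps between different motifs were not resolved, base composition was not taken into account, and a match is no evidence that a factor binds.

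Of the 11 called genes with an AP-1 match 7 rose and 4 fell, and 3 are shown whose values stand above: ERBB2 and IL1RN, which rose, and F3, which fell. The capitals mark the AP-1 match, and positions count from the start site.
F3: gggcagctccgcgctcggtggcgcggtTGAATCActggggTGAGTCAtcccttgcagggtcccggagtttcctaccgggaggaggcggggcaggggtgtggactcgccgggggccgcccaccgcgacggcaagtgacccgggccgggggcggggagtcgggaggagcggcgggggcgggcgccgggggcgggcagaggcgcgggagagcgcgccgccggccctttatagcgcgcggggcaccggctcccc
ERBB2: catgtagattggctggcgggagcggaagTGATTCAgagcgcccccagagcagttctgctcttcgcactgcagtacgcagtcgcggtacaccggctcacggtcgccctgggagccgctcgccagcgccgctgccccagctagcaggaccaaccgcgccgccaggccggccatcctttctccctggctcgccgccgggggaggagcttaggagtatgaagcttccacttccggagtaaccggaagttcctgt
IL1RN: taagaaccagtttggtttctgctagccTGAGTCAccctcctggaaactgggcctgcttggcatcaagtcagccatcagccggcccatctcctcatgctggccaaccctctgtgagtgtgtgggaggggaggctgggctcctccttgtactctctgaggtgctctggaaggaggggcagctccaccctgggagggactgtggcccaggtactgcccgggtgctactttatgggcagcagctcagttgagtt
Promoters of 29 genes that fell and of 15 that rose hold the NF-kappa-B site. The next 3 were picked by gene from those that fell, with the site marked in capitals: HLA-B, NFKBIZ and IL6.
HLA-B: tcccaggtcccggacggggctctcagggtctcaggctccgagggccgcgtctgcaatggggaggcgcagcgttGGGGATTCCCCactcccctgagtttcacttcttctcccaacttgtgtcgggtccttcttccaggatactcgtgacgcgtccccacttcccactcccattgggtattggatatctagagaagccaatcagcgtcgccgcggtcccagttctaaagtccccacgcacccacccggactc
NFKBIZ: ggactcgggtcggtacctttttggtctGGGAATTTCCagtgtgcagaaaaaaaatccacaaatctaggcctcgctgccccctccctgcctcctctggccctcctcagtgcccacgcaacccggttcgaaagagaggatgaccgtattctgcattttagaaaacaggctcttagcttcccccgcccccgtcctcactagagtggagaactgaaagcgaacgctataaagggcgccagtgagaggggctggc
IL6: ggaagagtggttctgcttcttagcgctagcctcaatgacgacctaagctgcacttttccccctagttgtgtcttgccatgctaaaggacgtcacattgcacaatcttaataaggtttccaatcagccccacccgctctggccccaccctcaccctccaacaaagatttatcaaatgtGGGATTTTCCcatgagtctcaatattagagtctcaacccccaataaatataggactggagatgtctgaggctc
The F3 window is chr1:94541760-94542009 on the minus strand of GRCh38.p14, with the match beginning at -223 and -210. The ERBB2 window is chr17:39687844-39688093 on the plus strand of GRCh38.p14, with the match beginning at -222. The IL1RN window is chr2:113117721-113117970 on the plus strand of GRCh38.p14, with the match beginning at -223. The HLA-B window is chr6:31357180-31357429 on the minus strand of GRCh38.p14, with the match beginning at -177 and -176. The NFKBIZ window is chr3:101827740-101827989 on the plus strand of GRCh38.p14, with the match beginning at -223. The IL6 window is chr7:22726950-22727199 on the plus strand of GRCh38.p14, with the match beginning at -73.

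HSL119 was also set against the HUNK knockdown lines, in a limma fit of all 15 libraries with its own panel-wide shift, in which 622 genes were tested. HSL119 was higher than both lines in 173 of them (27.8%) and lower than both in 184 (29.6%). These comparisons share the HSL119 libraries with the comparison against CTL, so the counts that follow are a description. Of the 174 genes that rose against CTL, 126 were also above both knockdown lines and 3 were below both, namely HIST1H1C, HIST3H2BB and MAML2. Of the 149 that fell, 116 were below both lines and 1, DLL4, was above both. HIST1H1C had a mean of 4967 scaled counts in CTL, 12810 in HSL119, 26510 in KD1 and 25860 in KD2. DLL4 had a mean of 78.7 scaled counts in CTL, 28.5 in HSL119, 13.6 in KD1 and 9.94 in KD2. For both genes the HSL119 mean therefore lay between the means of CTL and the knockdown lines. For VIM the means were 1990 scaled counts in CTL, 98.8 in HSL119, 1889 in KD1 and 6584 in KD2. For DUSP4 they were 713 scaled counts in CTL, 5230 in HSL119, 1883 in KD1 and 1145 in KD2. Each mean of a knockdown line covers unlike libraries. Between replicates 1 and 2 and replicates 3 and 4, the chi-square per degree of freedom was 110.82 to 112.06 in KD1. In KD2 it was 125.76 to 143.01. Between replicates 1 and 2 it was 1.19 in KD1 and 1.34 in KD2.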

How the data were processed

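RNA from JIMT-1 libraries was measured on a panel of 758 genes, classed by the labels as an array. Per the file headers, the deposited values are log2 normalized counts and, for the same libraries, linear normalized counts, a signal on the authors' scale; the normalization is not given in the sources used here. Each library's linear values were whole multiples of 1 step (tolerance 0.01, 100% of values), so whole counts were recovered from the authors' deposited linear values. Groups came from the sample titles.

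Each library's panel-wide shift was the median, over the 576 kept genes, of its deviation from the gene means of the 7 libraries. The test was limma 3.58.1 in R 4.3.3 (lmFit, eBayes with trend), adjusted by Benjamini-Hochberg with a threshold of 0.05. The 5 scalings were shift removal, quantile normalization, centring on library medians, log2 of linear values with 1 added, and the log2 values as deposited. edgeR 4.0.16 and DESeq2 1.42.0 were run on the recovered counts as alternatives, and replicates were left out in turn. The fit was tested on simulated data. Intervals are 95% intervals of the fit. Promoters and gene spans came from RefSeq tables of GRCh38.p14, matched by symbol. Symbols are those of the file, 9 of them older.

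The members, the 27 lists, the markers and the tests were chosen with earlier results of these data known. Named genes were the 15 largest rises and falls, up to 6 members per list, the 10 most abundant and 10 flattest genes, genes that crossed the floor of 20, and families whose members parted. Other list members and genes outside the lists were named after their values were seen. Some genes taken in by the rule are not reported here.

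Replicate numbers were not taken as pairs in the main fit. Correlations of deviations from group means were 0.169, 0.061 and 0.043 for equal numbers. They ran from -0.186 to 0.087 for unequal numbers.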

Additional observations from a re-analysis of the deposited data

Results flagged for a closer look

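Among the 167 named genes that are reported here, 4 had a CTL library far from the other 3 by Dixon's test, which chance gives in about 1 in 20 groups. The outlying value was the highest of the 4 for AURKB in CTL replicate 1 (4164.0 scaled counts), DSC2 in replicate 3 (402.6) and HDAC1 in replicate 1 (3108.9). It was the lowest for IL1RN in replicate 3 (8.5). In all 4 genes the HSL119 libraries lay outside the range of the CTL libraries, outlier included.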

How the results depend on the processing

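The counts of genes higher and lower in HSL119 stayed within 1.5 times of 235 and 237 under every alternative run. They were 219 and 246 with no filter, 200 and 204 with a floor of 100, 206 and 215 with all 15 libraries in the fit (126 rises and 113 falls on every scaling, from 174 and 149), 250 and 227 by edgeR and 224 and 229 by DESeq2. Leaving out 1 library gave 220 to 225 higher and 223 to 234 lower, and 171 to 181 rises and 142 to 158 falls on every scaling. With the replicate number as a block over 6 libraries they were 223 and 232, and 175 and 155 on every scaling. With CTL replicates 1 and 2 alone, an alternative added after seeing the data, they were 216 and 227, and with 3 and 4 alone 218 and 220.

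ENO1 turned to 0.119 on the deposited and 0.581 on the quantile-normalized values, and PGK1 to 0.041 and 0.387. Both settings treat the panel-wide shift differently. The mean difference between HSL119 and CTL in genes above the floor per library turned to -5.92 with a floor of 50 and to -2.75 without HSL119 replicate 2. Genes near the floor rest on few counts per library.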
